A study of Mus musculus with 16 samples.

Results

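The receptors through which bone marrow-derived dendritic cells (BMDCs) receive GM-CSF, IL-3, IL-4, IL-13 and the growth factors G-CSF, Flt3 ligand and stem cell factor were followed in BMDCs with and without the STING pathway. The set holds 9 of the 23356 genes of the deposited table, and its members were named by symbol: Csf2ra, Csf2rb, Csf2rb2, Il3ra, Il4ra, Il13ra1, Csf3r, Flt3 and Kit. RNA-seq was carried out on BMDCs from wild-type (WT), Tmem173-/- (lacking STING), Irf1-/- and Irf3/7-/- mice, all labelled with the C57BL/6 strain background. Marrow from femur and tibia was grown for 6 days with 10 ng/ml GM-CSF and 10 ng/ml IL-4, so every group, controls included, had already received ligands of the receptors measured here. Cells were then left untreated (NT) or received 25 μg/ml of the bacterial dinucleotide c-di-GMP (CDG) for 18 h, a dose taken from the labels and given differently in the study's figure legends. With 2 samples in each of 8 conditions there were 16 in all, and the authors pooled each pair into 1 FPKM (fragments scaled to transcript length and to library size) with the bounds of a confidence interval. No value per sample was used here, so the spread between cultures is unknown, no p-value is given, and intervals below stand in brackets after the FPKM. The study's methods give sex-matched mice of 6 to 12 weeks of age for its experiments, the number of mice behind a culture is not given in the sources used here, and marrow cultures are mixed, so fewer cells of a type and less RNA per cell cannot be told apart.

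GM-CSF is the cytokine that drives marrow progenitors towards dendritic cells in culture. Its receptor joins a private alpha chain, Csf2ra, to the common beta chain Csf2rb, which the receptors for IL-3 and IL-5 also use. The mouse carries a second beta chain gene, Csf2rb2, whose product serves IL-3 with the alpha chain Il3ra (CD123). IL-4 binds Il4ra, which pairs with the common gamma chain Il2rg in the type I receptor and with Il13ra1 in the type II receptor, the form that also binds IL-13. The beta chains signal mainly through JAK2 and STAT5, and Il4ra through JAK1 and STAT6. Csf3r is the G-CSF receptor of the neutrophil lineage, and Flt3 and Kit are receptor tyrosine kinases of progenitors, with Flt3 also kept by conventional and plasmacytoid dendritic cells and Kit by mast cells.

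Csf2rb and Csf2rb2 are close copies, and this bears on every value of the pair. In GRCm38, Csf2rb lies on the plus strand at chr15:78325800-78351001 and Csf2rb2 on the minus strand at chr15:78282507-78305721. In the reference transcripts the coding sequences, of 2691 and 2637 bases, had the same base at 2505 of 2631 aligned positions, an identity of 95.2%. Fragments were read for 35 bases from both ends, and 36.3% of the 35-base words of the Csf2rb coding sequence were also in that of Csf2rb2. Over whole transcripts, 17.1% of the words of Csf2rb were shared with Csf2rb2 and 25.9% of those of Csf2rb2 with Csf2rb. A read with such a word can still be placed by its mate where the mate lies in a stretch that differs, so these shares count single reads and not fragments. The longest identical stretch is shown because a single read within it does not tell the genes apart. It has 242 bases, from 2083 to 2324 of both coding sequences, and lies in the last exon of each gene, at chr15:78348577-78348818 in Csf2rb and chr15:78284630-78284871 in Csf2rb2.
Csf2rb and Csf2rb2, shared coding stretch: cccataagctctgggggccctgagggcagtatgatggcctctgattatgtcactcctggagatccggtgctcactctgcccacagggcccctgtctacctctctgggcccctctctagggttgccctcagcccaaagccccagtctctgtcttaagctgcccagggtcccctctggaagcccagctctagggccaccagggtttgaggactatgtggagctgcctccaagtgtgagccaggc

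Promoter windows of 250 bases before and 50 bases after the start site (RefSeq, GRCm38.p6) were found for 8 of the members, all but Csf2rb, with 2 windows for Kit. These start sites can lie inside the gene spans printed below. The Csf3r window covers chr4:126024409-126024708, while the span of the gene begins at 126023441. Both strands were searched for the STAT-type letters TTCNNNGAA and for GAAANNGAA, a part of interferon response elements. A STAT-type match stood in the Csf2rb2 window, beginning 15 bases before the start, and an interferon-type match in the Csf3r window, beginning 40 bases after it. The windows of Csf2ra, Il3ra, Il4ra, Il13ra1, Flt3 and Kit held neither. Among 32851 promoters of the same length, 8.30% held the STAT-type letters and 8.56% the interferon-type letters, so the matches are given as a description of these windows. The sequences that hold them are shown with the matched letters in capitals: the 250 bases before the Csf2rb2 start, at chr15:78305722-78305971 on the minus strand, and the last 30 bases of the Csf3r window, at chr4:126024679-126024708 on the plus strand.
Csf2rb2, before the start: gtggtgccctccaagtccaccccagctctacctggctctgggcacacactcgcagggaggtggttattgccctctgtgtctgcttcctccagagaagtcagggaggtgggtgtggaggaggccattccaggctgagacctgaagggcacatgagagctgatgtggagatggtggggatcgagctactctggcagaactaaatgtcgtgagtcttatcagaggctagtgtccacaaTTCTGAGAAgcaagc
Csf3r, end of the window: tgtcattaacgacggggctaGAAAGAGAAg

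The targeted genes were examined before the receptors. Tmem173 was at 8.97 and 7.49 FPKM in untreated and treated Tmem173-/- BMDCs, against 103 and 118 in WT. Irf1 was at 25.9 and 116 FPKM in the samples labelled Irf1-/-, against 149 and 245 in WT, lower but not absent, and Irf7 was at 1.07 and 4.97 in the samples labelled Irf3/7-/-, against 15.2 and 687. Irf3 in the samples labelled Irf3/7-/- was at 7.74 FPKM without and 20.2 with c-di-GMP, against 19.9 and 15.8 in WT, so in treated cells it did not show the label. A gene-level FPKM also counts exons that an allele may keep, and the genotype names below are those of the labels. Of 12 dendritic cell markers, 11 or 12 reached 1 FPKM in each condition, the exception being Cd209a, which was listed at 0 in treated WT BMDCs and stayed at or below 3.10 FPKM. Their summed level was between 5608 and 9198 FPKM, of which Cd74 alone gave between 3336 and 4983, with Itgax (CD11c) between 135 and 369 and Zbtb46 between 11.6 and 23.0, and in WT Ccr7 rose from 265 to 1257 and Cd24a fell from 227 to 64.3. Markers of B cells (8 genes) and of plasmacytoid dendritic cells (6 genes) summed to 3.47 to 11.1 and 11.9 to 19.9 FPKM. A change was called here when log2(FPKM + 0.1) differed by more than 1 between conditions, the deposited intervals did not overlap, at least 1 FPKM was reached in a compared condition and the status was OK. All 9 receptors were tested in all comparisons under this rule. Over 4710 genes with at least 10 FPKM, the median half-width of an interval was 25.2% to 25.7% of its value, and for the receptors it ran from 22.7% to 34.1%.

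**Figure D1:**
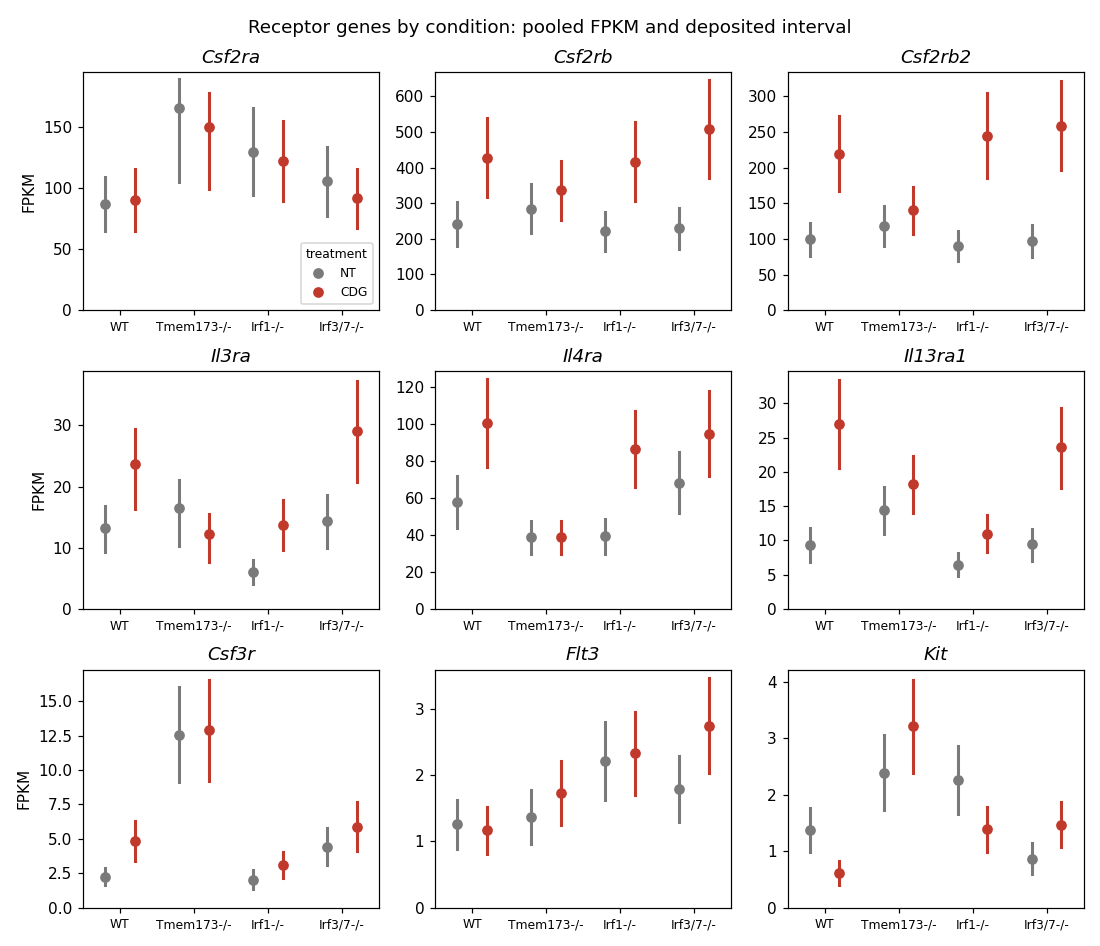
FPKM of the 9 receptor genes (vertical axes, from 0) in WT, Tmem173-/-, Irf1-/- and Irf3/7-/- BMDCs (horizontal axis), untreated in grey and treated with c-di-GMP in red. Points are the authors' pooled values of 2 samples and bars the deposited intervals; Csf2rb2 stood between 220 and 259 FPKM in treated WT, Irf1-/- and Irf3/7-/- BMDCs and at 140 in treated Tmem173-/- BMDCs.

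In WT BMDCs c-di-GMP was accompanied by higher Csf2rb2, Il13ra1 and Csf3r and lower Kit, so 4 of 9 receptors were called, 3 higher and 1 lower. Over all 11201 genes tested in that comparison, 20.5% were called. The median log2 change of the receptors was 0.82, beside 0.0033 over all genes. In Tmem173-/- BMDCs no receptor was called, in a comparison where 0.0552% of 10867 genes were called in all, and the receptor median was 0.24. In Irf1-/- BMDCs 3 of 9 were called higher (Csf2rb2, Il3ra and Il4ra) and none lower, against 17.5% of all genes, with a median of 0.76. In Irf3/7-/- BMDCs 4 of 9 were called higher (Csf2rb, Csf2rb2, Il3ra and Il13ra1) and none lower, against 17.9% of all genes, with a median of 0.70. The 4 comparisons share no condition, but each difference of a knockout from WT below uses the same WT samples.

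**Figure D2:**
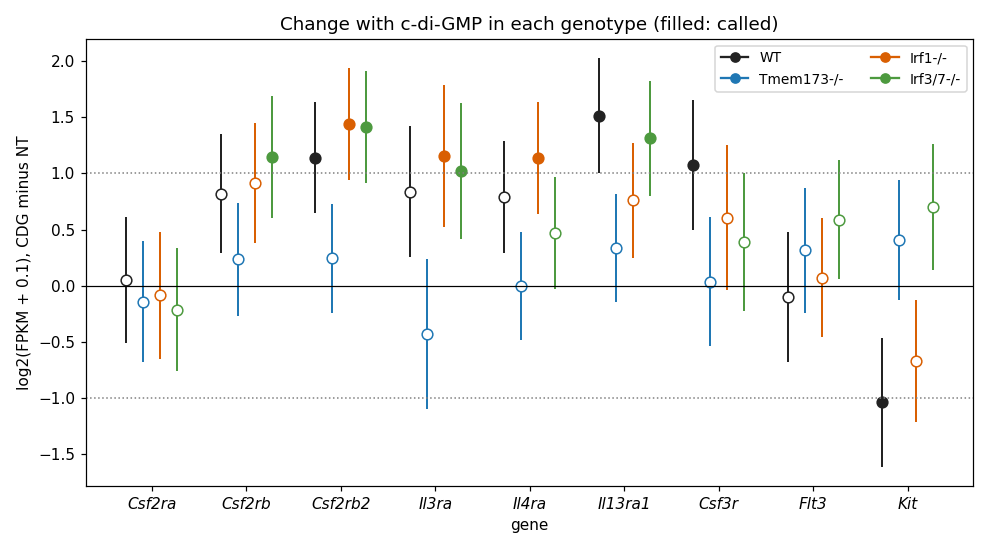
Change of each receptor gene with c-di-GMP (vertical axis, log2(FPKM + 0.1), CDG minus NT) in the 4 genotypes, with intervals propagated from the deposited bounds; filled points were called and dotted lines mark a change of 1 in size. The blue points of Tmem173-/- BMDCs are all open, between -0.43 for Il3ra and 0.41 for Kit.

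Csf2ra, the alpha chain that binds GM-CSF, had no call in any of the 10 comparisons between conditions. The gene lies at chr19:61217191-61228461. Its FPKM was 87.0 [64.5, 109] in untreated and 90.1 [64.5, 116] in treated WT BMDCs, 165 [105, 189] and 150 [98.8, 178] for Tmem173-/-, 130 [93.8, 166] and 122 [89.6, 155] for Irf1-/- and 106 [77.1, 134] and 91.5 [67.5, 115] for Irf3/7-/- BMDCs. The changes with c-di-GMP lay between -0.21 and 0.05 on the log2 scale in the 4 genotypes. Its order of levels placed untreated Tmem173-/- BMDCs highest and untreated WT lowest, 1.90-fold apart, and no neighbours in that order had intervals that stood apart. Untreated Tmem173-/- exceeded untreated WT by 0.92 (interval 0.41 to 1.44), a difference that was not called because it was under 2-fold and the deposited intervals overlapped.

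Csf2rb, the beta chain shared with the IL-3 and IL-5 receptors, was the most abundant of the 9 genes by FPKM in every condition. It stood at 242 [181, 303] and 428 [319, 538] FPKM in untreated and treated WT BMDCs, 285 [216, 354] and 336 [254, 418] for Tmem173-/-, 221 [166, 276] and 417 [307, 527] for Irf1-/- and 230 [172, 287] and 508 [371, 645] for Irf3/7-/- BMDCs. The treated values of WT, Irf1-/- and Irf3/7-/- BMDCs were above all 4 untreated values. The increase was called in Irf3/7-/- BMDCs, at 1.15 (0.61 to 1.68). In WT it was 0.82 (0.30 to 1.34) and in Irf1-/- 0.92 (0.39 to 1.44), with intervals apart but under 2-fold, and in Tmem173-/- it was 0.24 (-0.26 to 0.73).

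Csf2rb2, the beta chain dedicated to IL-3, rose in the 3 genotypes that carry STING. Its FPKM was 99.6 [76.2, 123] and 220 [167, 272] in untreated and treated WT BMDCs, 118 [90.6, 146] and 140 [107, 173] for Tmem173-/-, 90.2 [68.9, 111] and 245 [185, 304] for Irf1-/- and 97.1 [74.4, 120] and 259 [196, 322] for Irf3/7-/- BMDCs. The log2 changes were 1.14 (0.66 to 1.62) in WT, 1.44 (0.95 to 1.93) in Irf1-/- and 1.41 (0.93 to 1.90) in Irf3/7-/- BMDCs, and all 3 were called. In Tmem173-/- BMDCs the change was 0.25 (-0.23 to 0.72). The change in Tmem173-/- minus that in WT was -0.89 (-1.57 to -0.21), which excluded 0 but missed the size of 1. No untreated level differed from WT by more than 0.25 in size.

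The beta chains moved together, and the reads they share mean that each may hold reads of the other. Summed, they gave 342 and 647 FPKM in untreated and treated WT BMDCs, 403 and 476 for Tmem173-/-, 311 and 661 for Irf1-/- and 327 and 767 for Irf3/7-/- BMDCs. The summed change was 0.92 in WT, which is under 2-fold, so the call of Csf2rb2 in WT does not stand for the pair, while 1.09 in Irf1-/- and 1.23 in Irf3/7-/- were called. The FPKM ratio of Csf2rb to Csf2rb2 was between 2.36 and 2.45 in the 4 untreated conditions and in treated Tmem173-/- BMDCs. It was 1.95 (1.37 to 2.77) in treated WT, 1.70 (1.19 to 2.44) in treated Irf1-/- and 1.96 (1.37 to 2.82) in treated Irf3/7-/- BMDCs, each with an interval that overlapped that of its untreated ratio. Against the alpha chain the balance shifted more. The FPKM ratio of Csf2rb to Csf2ra was 2.79 (1.95 to 3.98) in untreated and 4.75 (3.24 to 6.96) in treated WT, 1.70 (1.17 to 2.47) and 3.41 (2.34 to 4.96) in Irf1-/-, and 2.17 (1.5 to 3.13) and 5.55 (3.81 to 8.08) in Irf3/7-/- BMDCs. It was 1.73 (1.22 to 2.45) and 2.24 (1.57 to 3.21) in Tmem173-/- BMDCs. Only the Irf3/7-/- pair of ratios had intervals that did not overlap.

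**Figure D3:**
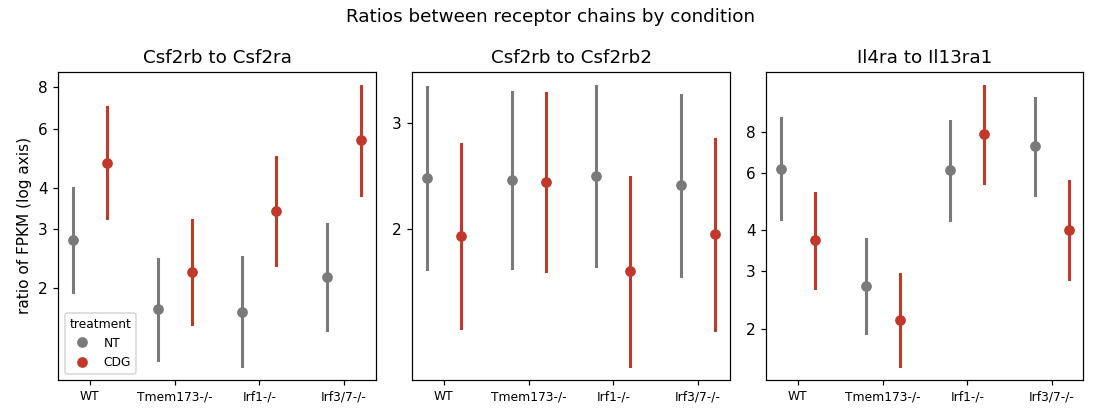
FPKM ratios of Csf2rb to Csf2ra, Csf2rb to Csf2rb2 and Il4ra to Il13ra1 (vertical axes, logarithmic) by genotype, untreated in grey and treated in red, with intervals propagated from the deposited bounds. Csf2rb to Csf2ra reached 5.55 in treated Irf3/7-/- BMDCs, and Il4ra to Il13ra1 was 2.70 and 2.13 in Tmem173-/- BMDCs, the lowest values of that ratio in the 8 conditions.

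Il3ra, the alpha chain of the IL-3 receptor, was higher after treatment in WT, Irf1-/- and Irf3/7-/- BMDCs, though the WT change was not called. It was lower in untreated Irf1-/- than in untreated WT BMDCs. The gene lies at chr14:14345912-14355493. It was at 13.2 [9.30, 16.9] and 23.7 [16.3, 29.5] FPKM in untreated and treated WT BMDCs, 16.5 [10.4, 21.1] and 12.2 [7.62, 15.5] for Tmem173-/-, 6.12 [4.11, 8.02] and 13.7 [9.61, 17.7] for Irf1-/- and 14.3 [9.93, 18.6] and 29.1 [20.8, 37.3] for Irf3/7-/- BMDCs. Untreated Irf1-/- BMDCs held the lowest level and treated Irf3/7-/- BMDCs the highest, 4.76-fold apart. The changes of 1.16 (0.54 to 1.77) in Irf1-/- and 1.02 (0.43 to 1.62) in Irf3/7-/- were called, while the WT change of 0.84 (0.26 to 1.41) was under 2-fold with overlapping intervals. In Tmem173-/- BMDCs the change was -0.43 (-1.09 to 0.23), and it differed from the WT change by -1.27 (-2.14 to -0.40), which was called. The Irf1-/- change differed from the WT change by 0.32 (-0.53 to 1.16) and the Irf3/7-/- change by 0.18 (-0.64 to 1.01), neither called. Treated Tmem173-/- BMDCs differed from treated WT by -0.95 (-1.56 to -0.34), with intervals apart but under 2-fold. The untreated difference of Irf1-/- from WT was -1.10 (-1.71 to -0.48) and was called. This call and that of the Irf3/7-/- change ended with a pseudocount of 1 FPKM.

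Il3ra also marks basophils, so their markers are given beside it. The summed FPKM of 13 basophil and mast cell genes was 73.7 and 164 in untreated and treated WT BMDCs, 74.4 and 60.3 for Tmem173-/-, 65.4 and 137 for Irf1-/- and 176 and 280 for Irf3/7-/- BMDCs. In WT the sum moved mainly through Hdc, the histidine decarboxylase that makes histamine, at 3.45 and 79.1 FPKM, which was the only gene of 7 tested from that list to be called there. Mcpt8, a basophil protease, was at 23.3 and 24.5 FPKM in WT and at 47.5 and 74.0 in Irf3/7-/- BMDCs. In untreated Irf3/7-/- against WT BMDCs 6 of 8 tested genes of the list were called higher, beside 2.04% of all genes called. In treated cells 7 of 8 were called higher and 1 lower, beside 7.3% of all genes. The mast cell genes Mcpt1, Mcpt2, Mcpt4, Tpsb2 and Tpsab1 stayed at or below 0.207 FPKM, with Tpsab1 listed at 0 in all 8 conditions. Cma1, also of the list, was called higher than in treated WT (0.476 FPKM) in treated Irf1-/- (1.72) and treated Irf3/7-/- BMDCs (1.99). Cpa3, also of the list, was between 11.5 and 39.9 FPKM. The part of basophils in the Il3ra values was not tested.

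Il4ra, the chain that binds IL-4, was lower in treated Tmem173-/- than in treated WT BMDCs. It lies at chr7:125552271-125579474. Its FPKM was 57.9 [43.8, 72.1] and 100 [76.8, 124] in untreated and treated WT BMDCs, 38.8 [29.9, 47.7] and 38.7 [29.7, 47.7] for Tmem173-/-, 39.4 [29.9, 48.9] and 86.6 [65.8, 107] for Irf1-/- and 68.3 [51.9, 84.8] and 94.8 [71.8, 118] for Irf3/7-/- BMDCs. The 3 genotypes with STING thus stood between 86.6 and 100 FPKM after c-di-GMP, and the Tmem173-/- level after treatment was the lowest of the 8. The increase was called in Irf1-/- BMDCs, at 1.13 (0.65 to 1.62). It was 0.79 (0.30 to 1.28) in WT, with intervals apart but under 2-fold, 0.47 (-0.02 to 0.96) in Irf3/7-/- and 0.00 (-0.47 to 0.47) in Tmem173-/- BMDCs. Treated Tmem173-/- differed from treated WT by -1.37 (-1.85 to -0.90), which was called, while the untreated difference was -0.58 (-1.06 to -0.09) and was not. The change in Tmem173-/- minus that in WT was -0.80 (-1.47 to -0.12), under the size of 1.

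Il13ra1, which pairs with Il4ra in the receptor for both IL-4 and IL-13, rose in WT and Irf3/7-/- BMDCs and was lower in treated Irf1-/- BMDCs than in treated WT. It lies at chrX:36112108-36171262. The gene was at 9.38 [6.92, 11.8] and 27.0 [20.6, 33.3] FPKM in untreated and treated WT BMDCs, 14.4 [11.0, 17.8] and 18.2 [14.1, 22.3] for Tmem173-/-, 6.45 [4.81, 8.10] and 11.0 [8.29, 13.7] for Irf1-/- and 9.45 [7.06, 11.7] and 23.6 [17.7, 29.3] for Irf3/7-/- BMDCs. The treated Irf1-/- level was nearer to the untreated WT level than to the treated one. The WT change, 1.51 (1.01 to 2.02), and the Irf3/7-/- change, 1.31 (0.81 to 1.81), were called. The Irf1-/- change was 0.76 (0.26 to 1.26), with intervals apart but under 2-fold, and the Tmem173-/- change was 0.34 (-0.13 to 0.81). The difference of treated Irf1-/- from treated WT, -1.29 (-1.77 to -0.80), was called, and that of the untreated cells, -0.53 (-1.05 to -0.01), was not. The Tmem173-/- change differed from the WT change by -1.18 (-1.87 to -0.49), which was called, and the Irf1-/- change by -0.75 (-1.47 to -0.04), which was not.

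The balance of the type II chains differed between genotypes. The FPKM ratio of Il4ra to Il13ra1 was 6.18 (4.32 to 8.82) in untreated and 3.72 (2.67 to 5.20) in treated WT BMDCs, and 7.23 (5.13 to 10.2) and 4.01 (2.84 to 5.67) in Irf3/7-/- BMDCs. In Irf1-/- BMDCs it was 6.10 (4.30 to 8.66) and 7.87 (5.59 to 11.1), and in Tmem173-/- BMDCs 2.70 (1.94 to 3.75) and 2.13 (1.54 to 2.94). The intervals of untreated and treated cells overlapped within each genotype. Against WT of the same treatment, those of untreated Tmem173-/- and of treated Irf1-/- BMDCs stood apart, and the others overlapped. Il2rg, the common gamma chain of the type I receptor, was at 158 and 359 FPKM in untreated and treated WT, 153 and 142 for Tmem173-/-, 118 and 206 for Irf1-/- and 170 and 316 for Irf3/7-/- BMDCs, and was above Il4ra in all 8 conditions. Its log2 change of 1.18 in WT was called.

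Csf3r, the G-CSF receptor, was the receptor with the largest called difference of untreated cells, higher in Tmem173-/- BMDCs. It lies at chr4:126023441-126044975. Its FPKM was 2.25 [1.65, 2.86] and 4.85 [3.37, 6.33] in untreated and treated WT BMDCs, 12.6 [9.12, 16.0] and 12.9 [9.24, 16.5] for Tmem173-/-, 2.02 [1.34, 2.71] and 3.13 [2.17, 4.09] for Irf1-/- and 4.44 [3.11, 5.78] and 5.86 [4.11, 7.65] for Irf3/7-/- BMDCs. Both Tmem173-/- values stood apart from the other 6, and this was the only break between neighbouring levels of any of the 9 genes at which intervals did not overlap. Untreated Tmem173-/- exceeded untreated WT by 2.43 (1.89 to 2.97), or 5.38-fold, and treated Tmem173-/- exceeded treated WT by 1.39 (0.80 to 1.98). The WT change with c-di-GMP, 1.07 (0.50 to 1.64), was called, and those of Irf1-/-, 0.61 (-0.03 to 1.24), Irf3/7-/-, 0.39 (-0.21 to 0.99), and Tmem173-/- BMDCs, 0.03 (-0.53 to 0.60), were not. The Tmem173-/- change differed from that of WT by -1.04 (-1.84 to -0.24), just past the size of 1. That call and the call of the WT change ended with a pseudocount of 1 FPKM. Of the 35-base words of Csf3r reference transcripts, 16.9% also lay in transcripts annotated as AC105061.2. Whether this affected the deposited Csf3r level was not tested.

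Neutrophil genes were also higher in Tmem173-/- BMDCs. The summed FPKM of 11 neutrophil markers was 4122 and 1926 in untreated and treated WT BMDCs, 20209 and 14775 for Tmem173-/-, 2606 and 1442 for Irf1-/- and 2368 and 1497 for Irf3/7-/- BMDCs. Of the 11 markers, 9 were called higher and 1 lower in untreated Tmem173-/- than in untreated WT, with a median difference of 2.63. In treated cells 10 were called higher and none lower. Over all genes tested in these comparisons, 11% were called untreated and 26.3% treated. The most abundant, S100a8, was at 2531 and 10351 FPKM in untreated WT and Tmem173-/- BMDCs. Within WT, Csf3r was higher after c-di-GMP while 5 of the 11 markers were called lower and none higher, led by Cxcr2 (72.4 and 7.20 FPKM), Mmp9 (17.9 and 6.78), Mmp8 (11.9 and 4.87) and S100a8 (2531 and 1105). The summed FPKM of 10 macrophage markers was 789 in untreated and 709 in treated Tmem173-/- BMDCs, against 289 and 491 in WT. Untreated, 3 of 10 were called higher than in WT and none lower. These were Csf1r, Cd14 and Cd68, at 194, 181 and 201 FPKM, on which the sum mainly rested. Treated, 5 of 10 were called higher and 1, Mertk, lower. In WT 3 of these 10 rose with c-di-GMP and 4 fell, among them Cd14 (18.5 and 181 FPKM), C1qa (12.2 and 3.14), Mertk (4.89 and 16.9) and C1qb (52.4 and 19.7). In Irf1-/- BMDCs Il3ra untreated and Il13ra1 treated were called lower than in WT. Of the 10 macrophage markers, 6 were called lower there than in WT untreated and 5 treated, none higher, with medians of -1.31 and -1.38. Over all genes tested, 4.78% were called in the untreated and 7.56% in the treated Irf1-/- comparison. The part of neutrophils and macrophages in the receptor values was not tested.

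**Figure D4:**
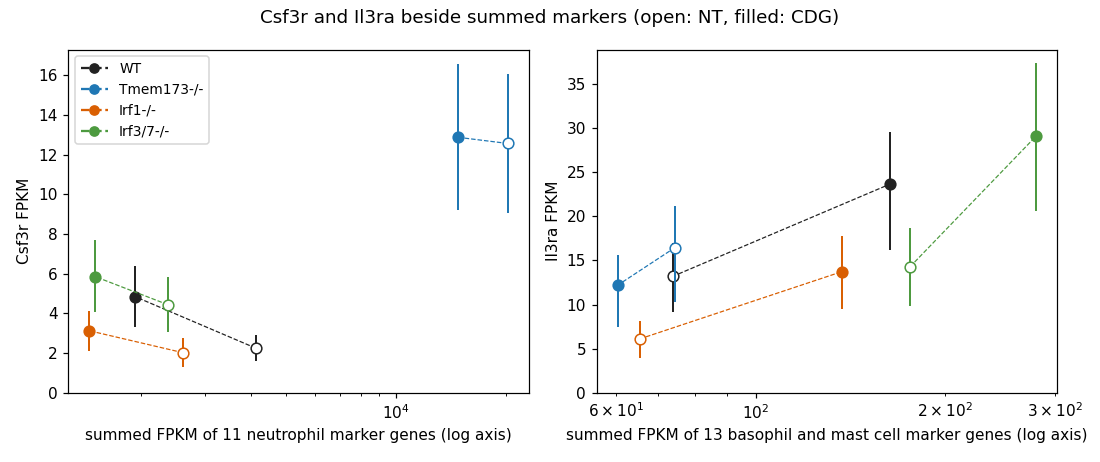
FPKM of Csf3r against the summed FPKM of 11 neutrophil markers and of Il3ra against that of 13 basophil and mast cell markers (horizontal axes logarithmic), in the 4 genotypes, open points untreated and filled points treated, with the deposited intervals of the receptors. The Tmem173-/- points stand alone at the right of the Csf3r panel, at 20209 and 14775 FPKM of neutrophil markers.

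Kit, the stem cell factor receptor, was the receptor that fell with c-di-GMP in WT BMDCs, at low levels throughout. It lies at chr5:75574987-75656722. Its FPKM was 1.38 [0.994, 1.77] and 0.624 [0.413, 0.833] in untreated and treated WT BMDCs, 2.39 [1.73, 3.06] and 3.21 [2.39, 4.04] for Tmem173-/-, 2.27 [1.67, 2.87] and 1.39 [0.990, 1.79] for Irf1-/- and 0.868 [0.594, 1.14] and 1.47 [1.07, 1.88] for Irf3/7-/- BMDCs. Treated WT BMDCs were the lowest of the 8 conditions and treated Tmem173-/- BMDCs the highest. The WT change was -1.03 (-1.60 to -0.47), just past the size of 1. In Irf1-/- BMDCs it was -0.67 (-1.20 to -0.14), and in Tmem173-/- and Irf3/7-/- BMDCs it was 0.41 (-0.12 to 0.94) and 0.70 (0.15 to 1.25), none of them called. The Tmem173-/- change differed from the WT change by 1.44 (0.67 to 2.22) and the Irf3/7-/- change by 1.73 (0.94 to 2.52), and both were called. All 3 treated knockouts were called higher than treated WT, by 2.19 (1.64 to 2.74) for Tmem173-/-, 1.04 (0.47 to 1.61) in Irf1-/- and 1.12 (0.56 to 1.68) in Irf3/7-/- BMDCs. Adding 1 FPKM in place of 0.1 before taking logarithms left the difference of treated Tmem173-/- from treated WT called and ended the other calls of Kit, that of the WT change included.

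Flt3, the receptor for the ligand that expands dendritic cell precursors, was low in these cultures. It lies at chr5:147330741-147400489. It was at 1.26 [0.881, 1.63] and 1.17 [0.805, 1.52] FPKM in untreated and treated WT BMDCs, 1.37 [0.968, 1.77] and 1.73 [1.25, 2.21] for Tmem173-/-, 2.21 [1.62, 2.81] and 2.33 [1.71, 2.95] for Irf1-/- and 1.79 [1.29, 2.28] and 2.75 [2.03, 3.46] for Irf3/7-/- BMDCs. No change with c-di-GMP was called in any genotype, the largest being 0.59 (0.07 to 1.11) in Irf3/7-/- BMDCs. Treated Irf3/7-/- exceeded treated WT by 1.17 (0.62 to 1.71), which was called, and this call ended with a pseudocount of 1 FPKM. Treated Irf1-/- exceeded treated WT by 0.94 (0.39 to 1.49), with intervals apart but under 2-fold. Of 10 other progenitor markers, all but Ly6a stayed at or below 10.2 FPKM, the level of Cd34 in untreated Irf1-/- BMDCs. Of the 8 tested in WT, Ly6a and Prom1 were called higher with c-di-GMP and Sox4 lower. Sox4, a progenitor transcription factor that, like Kit, fell in WT, was at 2.05 and 0.391 FPKM there and was called higher than WT in all 3 treated knockouts, at 2.58 for Tmem173-/-, 1.68 for Irf1-/- and 1.17 for Irf3/7-/- BMDCs. Sox4 was the only gene of the list called higher there, among 6 tested for Tmem173-/-, 6 for Irf1-/- and 7 for Irf3/7-/- BMDCs. Called lower were Cd34 and Ly6a for Tmem173-/-, Ly6a and Prom1 for Irf1-/-, and Prom1 for Irf3/7-/- BMDCs. Over all genes tested, 26.3%, 7.56% and 7.3% were called in these comparisons. Prom1 was at 0.747 and 2.36 FPKM in WT. Their summed level of 10 genes, from 18.5 to 689 FPKM, rested on Ly6a in WT BMDCs, at 127 and 672 FPKM. The part of progenitors in the Kit and Flt3 values was not tested.

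Between genotypes, at least 1 receptor was called in 5 of the 6 comparisons with WT. In treated cells 3 of 9 were called in Tmem173-/- against WT (Csf3r and Kit higher, Il4ra lower), where 26.3% of all genes tested were called, 2 of 9 in Irf1-/- (Kit higher, Il13ra1 lower), against 7.56%, and 2 of 9 in Irf3/7-/- (Flt3 and Kit higher), against 7.3%. The median differences of the receptors were -0.35, -0.04 and 0.25, beside 0.02, 0.02 and -0.02 over all genes. In untreated cells 1 of 9 was called in Tmem173-/- (Csf3r higher), against 11% of all genes, 1 of 9 in Irf1-/- (Il3ra lower), against 4.78%, and none in Irf3/7-/-, against 2.04%. The 3 comparisons of each kind share the WT samples. For the difference of the c-di-GMP change from that of WT, 4 of 9 were called in Tmem173-/- (Kit higher, Il3ra, Il13ra1 and Csf3r lower), against 21.7% of all genes, none in Irf1-/-, against 5.03%, and 1 in Irf3/7-/- (Kit higher), against 6.32%. The Tmem173-/- median of this difference was -0.80, beside 0.00035 over all genes.

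**Figure D5:**
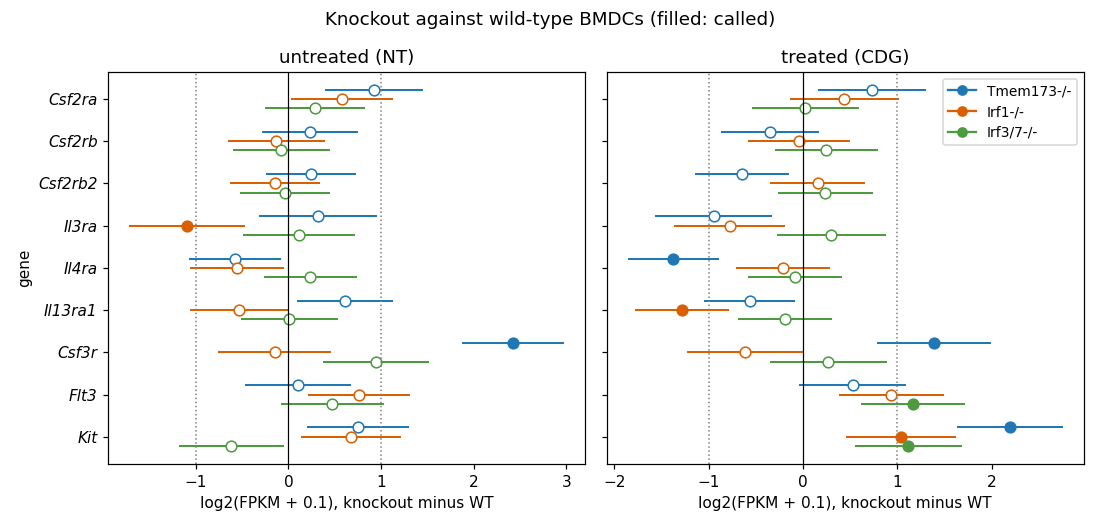
Difference of each knockout from WT BMDCs (horizontal axes, log2(FPKM + 0.1)) for the 9 receptor genes, untreated on the left and treated with c-di-GMP on the right, with propagated intervals; filled points were called. Csf3r in Tmem173-/- BMDCs stands at 2.43 untreated and 1.39 treated, and Kit in treated Tmem173-/- BMDCs at 2.19.

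The genes whose log2(FPKM + 0.1) followed each receptor most closely over the 8 conditions were sought among 7375 genes with at least 10 FPKM in some condition, as a description, since the points are 4 genotypes with and without treatment from a single table. Csf2rb was most like Mcoln2 (r = 0.995), Ndfip2 (0.990) and Smim3 (0.982), and Csf2rb2 like Frmd4a (0.989), Tmem167b (0.983) and Smim3 (0.982). Csf2rb and Csf2rb2 correlated with each other at r = 0.983, with shared reads. Il4ra was most like genes of antigen presentation by MHC class I and of the interferon response, H2-Q4 (0.993), B2m (0.992) and Gbp5 (0.992). Those 3 were highest in treated WT BMDCs, as was Il4ra, B2m with 8294 FPKM. Il13ra1 was most like Tma16 (0.977), Cept1 (0.976) and Naip2 (0.975), and Il3ra like Armc7 (0.972), Saa3 (0.962) and Ly6i (0.948). Csf3r was most like Ly86 (0.980), Cd300ld (0.957) and Ppt2 (0.956), Kit like Ptp4a2 (0.980), Trio (0.938) and Mfge8 (0.936), and Flt3 like Calu (0.908), Itga2b (0.882) and Cd44 (0.873). Among the receptors themselves the lowest r was that of Il4ra and Kit, at -0.82.

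The ligands of these receptors were scarce as transcripts, apart from Csf2 and Flt3l. Csf2, which encodes GM-CSF, was at 7.92 and 4.93 FPKM in untreated and treated WT BMDCs, listed at 0 in both Tmem173-/- conditions, at 1.13 and 1.26 for Irf1-/- and at 12.1 and 38.8 in Irf3/7-/- BMDCs. It was called higher with c-di-GMP in Irf3/7-/- BMDCs and lower in Irf1-/- than in WT BMDCs with and without treatment. The 9 NK cell markers, among which Eomes (8.02 and 2.24 FPKM) and Tbx21 (4.86 and 1.90) fell in WT, summed to 692 and 679 FPKM in WT, 4.33 and 3.99 for Tmem173-/-, 19.1 and 29.7 for Irf1-/- and 711 and 2181 for Irf3/7-/- BMDCs. The sums in WT rested on Gzma (349 and 329 FPKM) and Gzmb (321 and 336), which stood at 900 and 1242 in treated Irf3/7-/- BMDCs. Ncr1, another of the 9, stayed at or below 0.661 FPKM in all 8 conditions. The 10 T cell markers summed to 78.3 and 56.2 in WT, 3.76 and 3.89 in Tmem173-/-, 13.5 in both Irf1-/- conditions and 105 and 193 in Irf3/7-/- BMDCs, and the part of these cells in the Csf2 values was not tested. Il13 was at 2.17 and 0.537 FPKM in WT, the only one of 4 ligands tested there to be called, lower. Il4 was between 0.464 and 3.30 FPKM over the 8 conditions, Flt3l between 5.05 and 10.1, Csf3 between 0.102 and 2.40, Kitl between 0.278 and 1.70, and Il3 and Il5 stayed at or below 0.149. Csf3 and Kitl were called higher with c-di-GMP in Irf3/7-/- BMDCs, at 2.40 and 1.70 FPKM.

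Of the other receptors of the same families, 13 in all, 6 were tested in WT BMDCs, and Il2rg and Il7r were called higher. Il7r, the IL-7 receptor alpha chain, was at 15.2 and 48.8 FPKM in WT, 12.1 and 15.9 for Tmem173-/-, 20.4 and 56.4 for Irf1-/- and 12.3 and 41.3 for Irf3/7-/- BMDCs. Csf1r, the M-CSF receptor, was at 54.3 and 48.6 FPKM in WT, without a call, and was called higher than in WT in Tmem173-/- BMDCs, at 194 and 204 FPKM. Il2rb, shared by the IL-2 and IL-15 receptors, was at 65.3 and 37.7 FPKM in WT, 0.0439 and 0.0385 for Tmem173-/-, 2.48 and 2.34 for Irf1-/- and 83.9 and 145 for Irf3/7-/- BMDCs. Il21r was between 53.0 and 93.2 FPKM with no call, and Il6st between 7.24 and 17.0 with a call in Irf1-/- BMDCs. Il5ra, the alpha chain that pairs with Csf2rb for IL-5, reached at most 0.632 FPKM, and Epor, Il9r, Il13ra2, Pdgfra and Pdgfrb at most 0.467.

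Downstream of the receptors, 3 of 20 genes of JAKs, STATs and adaptors were called higher in WT BMDCs and none lower, with a median change of 0.21. Over all 11201 genes tested in that comparison 20.5% were called. That share belongs beside each count of listed genes called with c-di-GMP in WT. Stat5a and Stat5b, which the beta chains activate, were at 49.2 and 100 and at 19.2 and 45.6 FPKM in untreated and treated WT BMDCs, and Pik3r1, a PI3 kinase subunit, at 25.1 and 57.1. In Tmem173-/- BMDCs none of the 20 was called with c-di-GMP, where 0.0552% of all genes were called. Stat5a was at 18.6 FPKM untreated and 18.9 treated. Against treated WT 7 of the 20 were called lower, beside 26.3% of all genes called. Without treatment 3 of the 20, Stat5a among them, were called lower than in untreated WT, beside 11% of all genes. The untreated median difference of the 20 was -0.45. Stat6, which Il4ra activates, was between 57.0 and 87.9 FPKM with no call. Of 7 feedback inhibitors Socs3 alone was called in WT, at 29.2 and 172 FPKM, and it stood at 21.3 and 19.9 in Tmem173-/- BMDCs. Among 13 genes known as GM-CSF and STAT5 targets, Osm and Ccnd2 rose and Pparg and Myc fell in WT. Osm was at 24.5 and 64.4 FPKM, Ccnd2 at 190 and 394, Pparg at 12.5 and 5.86, and Myc at 44.1 and 9.03.

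Of 18 genes known as IL-4 and STAT6 targets, 15 were tested in WT BMDCs. Of these, 7 were called lower and 1 higher, with a median change of -0.91. Not tested were Fcer2a, below 1 FPKM, and Ccl22 and Chi3l3, which did not carry the status OK throughout. In untreated and treated WT BMDCs Ccl22 was listed at 5771 and 0 FPKM and Chi3l3 at 0 and 7751. Mrc1, the mannose receptor, was at 9.52 and 0.721 FPKM in untreated and treated WT BMDCs, Cdh1 (E-cadherin) at 49.4 and 6.06, and the lectins Clec10a at 22.9 and 3.46 and Mgl2 at 1115 and 184. The gene called higher was Klf4, a transcription factor, at 7.58 and 20.8 FPKM, which is named here for being the exception. In Irf1-/- BMDCs 9 of 15 were called lower and none higher, in Irf3/7-/- BMDCs 7 lower and 1 higher, and in Tmem173-/- BMDCs none of 17. The shares called over all genes in these comparisons were 17.5%, 17.9% and 0.0552%. The list mixes genes of macrophages and dendritic cells. Mrc1 was at 42.7 FPKM in untreated Tmem173-/- BMDCs, where 3 of 10 macrophage markers were called higher than in WT. Mrc1 was 1 of 2 genes of the list called higher there than in untreated WT. Of the 16 tested, 9 were called lower, with a median difference of -1.20. Over all genes tested, 11% were called in that comparison.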

How the data were processed

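Per the labels, stranded mRNA libraries of 16 samples were made, and the authors deposited a single Cuffdiff table (version 1.06 in their processing notes) that holds, per condition, the FPKM pooled over 2 samples, both bounds of its interval and a status. Read totals per sample were not used here, and the intervals carry both counting error and the spread that Cuffdiff modelled. The processing notes name mm9, but all 9 loci of the table lie at GRCm38 positions, whose coordinates are printed. The study's methods name an opposing-strand, paired-end setting for a separate Seqmonk pipeline. Aligner and Cuffdiff strand setting: not given in the sources used here. A further knockout, in 4 columns, was left out. Of 23356 genes, 23245 carried the status OK throughout.

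From the deposited FPKM, log2(FPKM + 0.1) was compared between conditions over all genes, in 10 comparisons. Genes were called as stated in the report. Intervals of differences and ratios were propagated by the delta method, reading the deposited bounds as 95% intervals. A difference of changes was called when it exceeded 1 in size and its interval excluded 0. The calls were tested on simulated data. Alternatives were pseudocounts of 1 and 0.01 FPKM, no minimum or a minimum of 5 FPKM, thresholds of 1.5-fold and 4-fold, median centring, the fold alone, a z from the intervals with q below 0.05, and Csf2rb and Csf2rb2 summed. The members, the 15 gene lists and the motifs were chosen with earlier results of these data known. Named from the lists were the ligands and related receptors (1 of the latter is not reported here), the targeted genes, and up to 4 genes per list called in WT with at least 10 FPKM in some condition and the largest changes; for each receptor called anywhere, the 3 genes most like it were named. Cd74, Cd209a, Itgax, Zbtb46, Mcpt8, Cpa3, Cma1 and other mast cell genes fall outside this rule and were chosen after their values were seen. The same holds for Gzma, Gzmb, Ncr1, Cd34, Sox4, Prom1, Stat6, Klf4, Cd68, Fcer2a, Ccl22 and Chi3l3. Shared 35-base words and coding identity came from GENCODE transcripts. The work used matplotlib 3.10.9, scipy 1.17.1, pandas 2.3.3 and numpy 2.4.6 under Python 3.11.15.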

Additional observations from a re-analysis of the deposited data

Results flagged for a closer look

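For 5 values the change of a receptor with c-di-GMP differed between a knockout and WT BMDCs, by more than 1 on the log2 scale and with an interval that excluded 0. In Tmem173-/- minus WT the difference was -1.27 for Il3ra, -1.18 for Il13ra1, -1.04 for Csf3r and 1.44 for Kit. In Irf3/7-/- minus WT it was 1.73 for Kit, where the change was 0.70 against -1.03 in WT. The differences were not tested over replicates, since the authors pooled them, and the interval rests on the deposited bounds. The Kit values rest on levels between 0.624 and 3.21 FPKM in these conditions.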

How the results depend on the processing

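No paired analysis was possible because the columns hold pooled conditions and carry no replicate numbers, and for the same reason no sample could be left out. No direction reversed under any alternative. Calls between treated and untreated cells numbered 11, and 0 with a 4-fold threshold. Calls between treated knockout and treated WT numbered 7, and 4 with a pseudocount of 1 FPKM, 3 with a minimum of 5 FPKM and 1 with a 4-fold threshold. The 2 calls in untreated cells became 1 under a 4-fold threshold and likewise 1 under the 1 FPKM pseudocount. The 5 called differences of changes became 2 with a pseudocount of 1 FPKM, 3 with a minimum of 5 FPKM, 8 with a 1.5-fold threshold and 0 with a 4-fold threshold. Of the 20 calls between conditions, that of Csf3r in untreated Tmem173-/- BMDCs alone held under every alternative, and none of the 5 differences did. The Csf3r difference was also lost with the z and q rule, and the calls of Kit, Flt3 and Csf3r in WT, all under 5 FPKM, with a pseudocount of 1 FPKM or a minimum of 5 FPKM, except Kit in treated Tmem173-/- BMDCs, which the pseudocount left. Those of Il3ra in untreated Irf1-/- BMDCs and for the Irf3/7-/- change ended with that pseudocount too.

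Over all genes the counts called also moved by more than 1.5 times. From 2291 in WT they ranged between 592 and 3087 over the alternatives, from 6 in Tmem173-/- between 0 and 83, from 1952 in Irf1-/- between 589 and 2658, and from 2015 in Irf3/7-/- between 500 and 2807. Against treated WT they ranged from 2980 between 1174 and 3823 (Tmem173-/-), from 838 between 232 and 1177 (Irf1-/-) and from 818 between 207 and 1192 (Irf3/7-/-). Against untreated WT they ranged from 1221 between 422 and 1612, from 527 between 176 and 706 and from 224 between 36 and 350. For the differences of changes they ranged from 2497 between 673 and 3501, from 577 between 148 and 874 and from 728 between 169 and 1117. Each lowest count was that with a 4-fold threshold.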

Other observations

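The depth behind the low receptors can be approached from the deposited bounds. For Csf2ra, Il3ra, Il13ra1 and Flt3 all 16 bounds were whole multiples of a single step, within 0.02 of a whole number or the rounding of the printed digits. The step was 0.0285 FPKM for Il3ra, 0.0108 for Il13ra1, 0.0109 for Flt3 and 0.0215 for Csf2ra, the same in all 8 conditions. No such step was found for the other 5 receptors. Measured in steps, Flt3 lay between 107 and 253, Il3ra between 214 and 1021, Il13ra1 between 598 and 2499 and Csf2ra between 4044 and 7673. Whether a step is the worth of 1 scaled fragment is not stated in the sources used here.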
